A study of Drosophila melanogaster with 9 samples.

Results

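The JAK/STAT pathway of *Drosophila* blood cells is described here through 9 of the 17490 genes in the deposited table, taken by exact symbol: the ligands *upd1*, *upd2* and *upd3*, the receptor genes *dome* and *et*, the kinase gene *hop*, the transcription factor gene *Stat92E*, and the inhibitors *Socs36E* and *Ptp61F*. All 9 were found. RNA was sequenced from hemocytes of the adult (AD), from peripheral hemocytes of the larva (PH) and from the larval lymph gland (LG), with 3 biological replicates in each group and 9 samples in all. Every group carried the w1118 genotype and no treatment. AD were washed out of adult females 4 to 5 days old by PBS perfusion, PH were released from wandering L3 larvae by opening the cuticle, and LG were the dissected anterior lobes of the gland at the same larval stage. Each sample pooled the cells or glands of many animals, and none was sorted, so that a group mixes several blood cell types with whatever other cells came along. In such bulk samples, fewer cells expressing a gene and less RNA per cell cannot be told apart.

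In the fly, secreted Unpaired cytokines bind the receptor Domeless, whose associated kinase Hopscotch phosphorylates the transcription factor Stat92E, which then enters the nucleus and activates its targets. Signaling is damped at several steps. The short receptor encoded by *et* (also called *latran*) lacks the signaling part of Domeless and antagonizes it, Socs36E is a STAT-induced feedback inhibitor, and Ptp61F is a phosphatase that acts on Hopscotch and Stat92E. The pathway is best known in blood for holding lymph gland progenitors undifferentiated and for driving lamellocyte formation when it is overactive, and *dome* reporters are used as progenitor markers.

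Values are RPKM, that is, reads divided by exon length in kilobases and by library size. Whole reads could be recovered from them, 2745573 to 6779942 per sample, of which 43.0 to 61.5% fell in rRNA genes, and 1 RPKM stood for 3.02 to 9.03 reads per kilobase of exon. These totals are below the mapped reads per sample stated in the study's text. They also differ from the library sizes by which the RPKM had been divided, as worked out from the values. In LG replicate 3 that size was 9033159 against 6779942 recovered reads, and in PH replicate 3 it was 3849898 against 4999411. The reasons were not tested, so that read counts, intervals and limits hold for the recovered reads. Intervals and limits given below cover counting error only. All 8 plasmatocyte markers were above 1 RPKM in every sample, with a summed RPKM of 4088 to 4762 for AD, 2051 to 3283 for PH and 1903 to 2328 for LG. The 3 prohemocyte markers (*Tep4*, *Ance*, *shg*) summed to 87.5 to 102 RPKM for AD and 168 to 208 for PH, but to 1091 to 1825 in LG. The 4 adult fat body markers summed to 7505 to 11880 RPKM in AD and to at most 32.8 in a larval sample, the 6 larval fat body markers to 1430 to 1996 in PH, and the 7 muscle markers found, of 8 named, to 466 to 509 in AD, against 29.8 to 62.4 in PH and 292 to 369 in LG. LG replicate 1 stood apart: its 4 ring gland markers summed to 158.5 RPKM against 0.874 and 1.08 in LG replicates 2 and 3, and the dosage compensation RNA *roX1*, a male marker, was at 21.8 RPKM against 0.362 and 0.526. Of the other male markers, *roX2* was at 1.96 RPKM in LG replicate 1 and at 0 in LG replicates 2 and 3. By contrast, *msl-2* did not set LG replicate 1 apart, at 2.965 RPKM against 2.834 and 2.074. In AD *roX1* was at 7.45 to 8.57 RPKM, although these samples came from females, and in PH at 2.30 to 3.56. The AD samples had 0, 1.21 and 0 RPKM of *roX2* and 2.93 to 3.85 of *msl-2*, and the source of their *roX1* was not tested. Tests and ratios that involve LG are therefore also given without LG replicate 1.

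The members spanned a wide range of levels. *Stat92E* was the most expressed in AD and PH, ranking 397th and 907th of all genes by mean RPKM, whereas *et* led in LG at rank 273, ahead of *Stat92E* at rank 314. *Ptp61F* ranked 1980th in AD, 2468th in PH and 2904th in LG, where *hop* stood ahead of it at rank 2183. *hop*, *Socs36E* and *dome* lay between ranks 2183 and 6302. These 6 genes were above 1 RPKM in all samples of each group, while the 3 ligand genes reached that level in all samples of no group. The summed RPKM of the 9 genes ran from 178 to 186 in AD, from 85.1 to 97.5 in PH and from 250 to 295 in LG, with no overlap between groups. *Stat92E* and *et* together made up most of that sum in every sample.

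**Figure D1:**
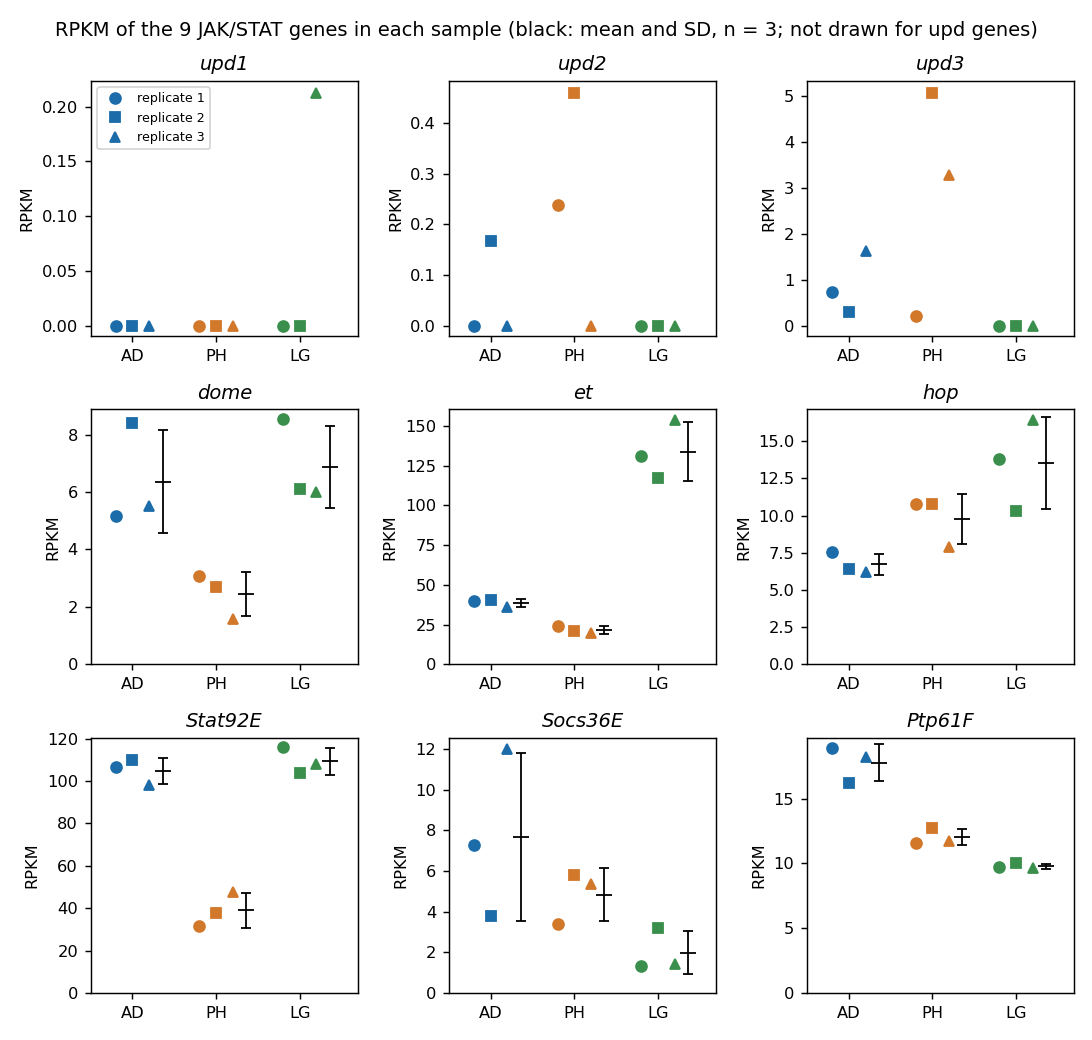
RPKM (vertical axes, linear, each with its own range) of the 9 JAK/STAT genes in each AD, PH and LG sample, 1 marker per replicate, with the mean and SD of 3 samples in black except for the *upd* genes. *et* sits between 117 and 153 RPKM in LG and at or below 40.7 elsewhere, *Stat92E* and *dome* are lowest in PH, and *upd3* has no read in LG.

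Genes were compared between pairs of groups with limma on log2(RPKM + 1), over all genes above 1 RPKM in at least 3 of the 6 samples, with Benjamini-Hochberg adjustment over all of them. Calls required a log2 difference of more than 1 in either direction with an adjusted p-value under 0.01. Such differences understate the change of genes with low values. Between AD and PH, 7 members could be tested and 2 were called, both higher in AD (*dome* and *Stat92E*), while 37% of the 7692 genes tested were called in either direction, 23% as higher and 13.9% as lower in AD. Between AD and LG, 1 of 6 was called, *et*, which was lower in AD, against 30.4% of 7748 genes in either direction, 20% as higher and 10.4% as lower in AD. Between PH and LG, 2 of 6 were called, *et* and *Stat92E*, both lower in PH, against 14.2% of 7088 genes in either direction, 7.63% as higher and 6.57% as lower in PH. Each pair of comparisons shares a group of samples, so that a low value in PH enters both of its comparisons. The median log2 difference of the members tested was 0.53 for AD against PH, -0.08 for AD against LG and -0.81 for PH against LG, next to 0.05, 0.07 and 0.01 over all genes tested.

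The ligand genes lie near each other on the X chromosome, with 33948 bp between *upd2* and *upd3* and 20757 bp between *upd3* and *upd1*, and their RNA was at or close to 0 in most samples. *upd1* (FBgn0004956, X:18305354-18309291 on the minus strand of BDGP6.54) encodes the ligand that is most used in embryonic and imaginal patterning. It had no read in 8 samples and 6 reads in LG replicate 3, where it stood at 0.213 RPKM. In the samples without a read, the limit set by 3 reads was 0.151 to 0.318 RPKM. *upd2* (FBgn0030904, X:18240654-18243284, minus strand), known as a fat body signal of the nutritional state, had 1 read in the AD samples together, 8 in PH and none in LG. Its highest value was 0.459 RPKM, in PH replicate 2. Neither gene passed the filter on low values in any comparison, and differences between groups were not detectable at this depth.

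*upd3* (FBgn0053542, X:18277233-18284596, plus strand) encodes the cytokine that hemocytes and gut cells release on infection or injury. It was the one ligand gene with more than a few reads. It stood at 0.745, 0.298 and 1.63 RPKM in AD replicates 1 to 3, at 0.212, 5.07 and 3.27 in PH replicates 1 to 3, and had no read in any LG sample. AD and PH overlapped, because PH replicate 1 lay below every AD sample. PH replicates 1 to 3 held 3, 62 and 28 reads, and the exact Poisson 95% interval of PH replicate 1, 0.0438 to 0.621 RPKM, did not reach that of PH replicate 2, 3.89 to 6.50. The spread within PH was thus larger than counting error, and the limma difference of AD against PH was -0.80 on the log2 scale (SE 0.57, 95% interval -2.11 to 0.51, adjusted p = 0.259). Without PH replicate 1 it was -1.49 (adjusted p = 0.0105), which still missed the threshold. Against the RPKM of 3 reads in the LG library with the highest such limit, 0.446, the mean of PH was at least 6.4-fold higher and that of AD at least 2.0-fold higher. These bounds rest on single libraries, being 3.91-fold without PH replicate 2 and 1.17-fold without AD replicate 3, and PH replicate 1 and AD replicate 2 were themselves under the limit. *upd3* did not pass the filter in the comparisons with LG. Without a filter, its limma adjusted p was 0.0453 for AD against LG and 0.102 for PH against LG, neither past the threshold.

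The pair of receptor genes is adjacent on the X chromosome, with *et* lying 169 bp beyond *dome* on the same strand. *dome* (FBgn0043903, X:19676061-19683518, minus strand) encodes the signaling receptor. Its RPKM was 5.16, 8.41 and 5.52 in AD, with 3.07, 2.68 and 1.60 in PH and 8.52, 6.09 and 5.995 in LG replicates 1 to 3. All PH samples lay below all AD and LG samples, whereas AD and LG overlapped. These levels rest on 289 reads for AD, 197 for PH and 602 for LG. AD averaged 6.36 ± 1.78 RPKM, PH 2.45 ± 0.761 and LG 6.87 ± 1.43 (SD, n = 3).

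On the log2 scale *dome* was 1.09 higher in AD than in PH (SE 0.27, 95% interval 0.48 to 1.70, limma adjusted p = 0.00728). That difference, 2.13-fold on RPKM + 1, passed both thresholds, while the mean RPKM differed 2.6-fold. This call was near the limits. It was lost in 10 of 16 alternatives, among them each AD replicate left out in turn (adjusted p = 0.012, 0.0307 and 0.015) and PH replicates 2 or 3 left out (adjusted p = 0.0171 and 0.0222). Against LG, PH was lower by a similar amount (log2 difference -1.20, SE 0.26, adjusted p = 0.01001), which missed the threshold by a small margin and was called in 5 of 16 alternatives. Without LG replicate 1 the difference was -1.06 (adjusted p = 0.0339). AD and LG differed by -0.11 (95% interval -0.69 to 0.47, adjusted p = 0.75), and by 0.04 without LG replicate 1.

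*et* (FBgn0031055, X:19672312-19675891, minus strand) encodes the short receptor and gave the largest differences among the members tested. Its RPKM was 39.6, 40.7 and 35.8 in AD, with 24.3, 20.9 and 19.9 in PH and 131, 117 and 153 in LG replicates 1 to 3. The groups did not overlap in any pair, and the order LG, AD, PH held for every sample. The mean was 134 ± 18.5 RPKM in LG, 38.7 ± 2.55 in AD and 21.7 ± 2.32 in PH (SD, n = 3), on 6081, 871 and 835 reads. *et* was lower in AD than in LG by -1.76 on the log2 scale (SE 0.15, 95% interval -2.09 to -1.42, limma adjusted p = 5.61e-05) and lower in PH than in LG by -2.57 (SE 0.16, 95% interval -2.94 to -2.19, adjusted p = 7.98e-05). Both were called in all 16 alternatives, and without LG replicate 1 they were -1.77 and -2.58. Between AD and PH the difference was 0.81 (SE 0.13, adjusted p = 0.000828), which passed the p-value threshold but stayed under the 2-fold limit. Of the 3 prohemocyte markers, *Tep4* (696 to 840 RPKM in LG, 50.9 to 90.6 elsewhere) and *Ance* (394 to 983 in LG, 34.1 to 124 elsewhere) were also called higher in LG than in AD and PH, whereas *shg*, with a mean of 2.18 RPKM for LG against 3.32 for AD and 0.601 for PH, was not called. Markers of other cells were also highest in LG. The 4 heart and pericardial markers, mainly *Hand*, summed to 14.8 to 29.2 RPKM in LG and to at most 0.947 elsewhere. The muscle markers *Act57B* and *TpnC73F* averaged 114.5 and 117.1 RPKM in LG and less elsewhere, whereas the other muscle markers found were highest in AD. The part of these cells in the level of *et* was not tested. *et* shares 42 bp of exon with *Zw* on the opposite strand, which had a mean of 0.852 RPKM in LG and less elsewhere.

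The balance between the short and the full receptor differed accordingly. The ratio of *et* to *dome* RPKM, taken within each sample, was 7.66, 4.84 and 6.50 in AD, with 7.94, 7.78 and 12.5 in PH and 15.4, 19.2 and 25.6 in LG replicates 1 to 3. Every LG sample had a higher ratio than every PH sample, and every PH sample a higher ratio than every AD sample. The gap between PH and AD was narrow, at 7.78 in PH replicate 2 against 7.66 in AD replicate 1. These 2 ratios rest on 72 and 76 reads of *dome*. The geometric mean was 6.22 for AD, 9.17 for PH and 19.6 for LG, so that the ratio in LG was 3.15-fold that in AD and 2.14-fold that in PH. Two-sided exact permutation tests gave p = 0.1 in each pair, the smallest value 3 against 3 samples can give, and 0.1 after Benjamini-Hochberg adjustment over the 6 ratio comparisons made. Without LG replicate 1 the ratio in LG was 3.56-fold that in AD and 2.42-fold that in PH, still with no overlap. The ratio is of RNA levels per kilobase and rests on few reads of *dome*, above all in PH.

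**Figure D2:**
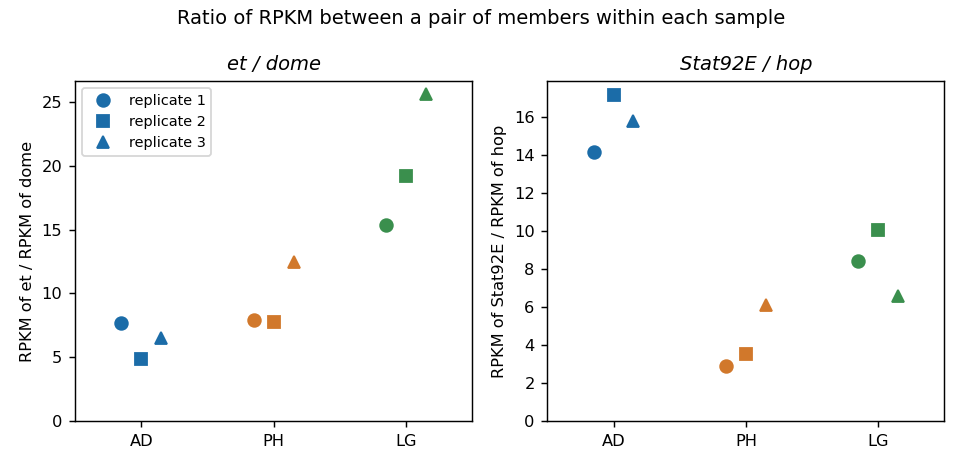
Ratio of RPKM within each sample (vertical axes) for *et* over *dome* and for *Stat92E* over *hop*, with 1 marker per replicate of AD, PH and LG. The receptor ratio runs from 4.84 in AD replicate 2 to 25.6 in LG replicate 3, and the *Stat92E* to *hop* ratio from 2.91 in PH replicate 1 to 17.2 in AD replicate 2.

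*hop* (FBgn0004864, X:11360930-11368098, minus strand) encodes the only JAK kinase of the fly, and its gain-of-function alleles cause blood cell tumors. It is not the gene *Hop* of the same table, which differs in the capital letter and in identifier (FBgn0024352) and had 52.3 to 170 RPKM. The RPKM of *hop* was 7.53, 6.41 and 6.22 in AD, with 10.8, 10.7 and 7.86 in PH and 13.8, 10.3 and 16.4 in LG replicates 1 to 3. AD lay below both larval groups, with no overlap, whereas PH and LG overlapped. The gap between AD replicate 1 and PH replicate 3 was narrow, and their exact Poisson 95% intervals overlapped (6.22 to 9.04 and 6.665 to 9.21 RPKM). AD averaged 6.72 ± 0.710 RPKM, PH 9.80 ± 1.68 and LG 13.5 ± 3.08 (SD, n = 3), on 317, 799 and 1325 reads. No difference was called: AD stood at -0.48 against PH (SE 0.19, limma adjusted p = 0.0583), AD at -0.89 against LG (SE 0.22, adjusted p = 0.0103), and PH at -0.42 against LG (SE 0.23, adjusted p = 0.197) on the log2 scale. Against LG, AD was called lower in 5 of 16 alternatives, which include the 3 other scalings of the libraries (log2 differences -1.09 to -1.21) and LG replicate 2 left out (-1.06), and without LG replicate 1 the values were -0.87 for AD (adjusted p = 0.0304) and -0.39 for PH (adjusted p = 0.318).

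*Stat92E* (FBgn0016917, 3R:20535323-20552311, minus strand) encodes the only STAT of the fly. Its RPKM was 107, 110 and 98.1 in AD, with 31.4, 37.9 and 47.8 in PH and 116, 104 and 108 in LG replicates 1 to 3. PH stood well below both other groups, which overlapped. Some markers of blood cells and of other cells were also lowest in PH. The plasmatocyte marker *Hml* averaged 237 RPKM for PH against 1087 for AD and 778 for LG. The crystal cell markers *peb* (0.7325 against 8.31 and 3.66) and *lz* (2.24 against 8.345 and 3.18) were lowest in PH too. The other plasmatocyte and crystal cell markers were not. Of the 3 markers of the posterior signaling center, the niche of the lymph gland, *kn* averaged 0.162 RPKM for PH against 2.13 for AD and 7.05 for LG, *Antp* averaged 0.145 for PH against 1.54 and 3.13, and *hh* was at most 0.332 in any sample. The summed muscle markers given above were lowest in PH too, and the part of these cells in the level of *Stat92E* or *dome* was not tested. AD averaged 105 ± 6.14 RPKM, PH 39.0 ± 8.23 and LG 109 ± 6.24 (SD, n = 3), on 5101, 3085 and 10327 reads. *Stat92E* was higher in AD than in PH by 1.42 on the log2 scale (SE 0.16, 95% interval 1.06 to 1.78, limma adjusted p = 8.91e-05), a 2.69-fold difference of the means, and lower in PH than in LG by -1.48 (SE 0.18, 95% interval -1.89 to -1.07, adjusted p = 0.000912). Both calls were made in all 16 alternatives, and the second was -1.44 (adjusted p = 0.00278) without LG replicate 1. Between AD and LG the difference was -0.06 (95% interval -0.34 to 0.22, adjusted p = 0.72), an interval that leaves out a 2-fold change in either direction, and without LG replicate 1 it was -0.01. It depended on the scaling, running from -0.41 to -0.01 over the 16 alternatives. With quantile normalization it was -0.40 (limma adjusted p = 0.02055), and it was called in none of them.

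The ratio of the transcription factor gene to the kinase gene also separated the groups. *Stat92E* over *hop* was 14.2, 17.2 and 15.8 in AD, with 2.91, 3.52 and 6.08 in PH and 8.42, 10.1 and 6.56 in LG replicates 1 to 3. Every AD sample was above every LG sample, and every LG sample above every PH sample. The geometric mean in AD, 15.7, was 3.95-fold that in PH, 3.96, and 1.90-fold that in LG, 8.22. The exact permutation p was again 0.1 in each pair. Without LG replicate 1, LG stood at 8.13, with AD 1.93-fold above it and PH 2.05-fold below it. Of the summed RPKM of the 9 genes, *Stat92E* took 55.3 to 59.1% for AD, 37.0 to 49.0% for PH and 36.6 to 41.5% for LG, whereas *et* took 20.2 to 21.9% in AD and 20.4 to 28.6% in PH, but 46.7 to 52.0% in LG.

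**Figure D3:**
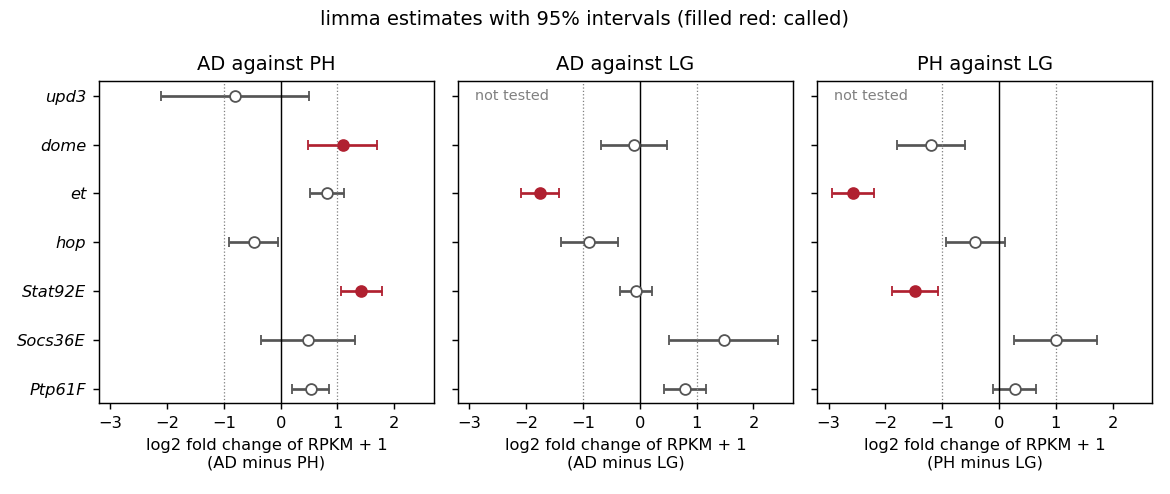
Log2 difference between groups on the log2(RPKM + 1) scale (axis of differences) for each JAK/STAT gene tested with limma, with bars for the 95% interval, in the comparisons of AD with PH, AD with LG and PH with LG. *et* is at -1.76 and -2.57 in the comparisons with LG, and *Stat92E* is at 1.42 for AD against PH and -1.48 for PH against LG, with intervals that do not reach 0.

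Both inhibitors had their lowest mean in LG, and no difference of either passed both thresholds. *Socs36E* (FBgn0041184, 2L:18138675-18152417, minus strand), the feedback inhibitor often read as a measure of pathway output, had an RPKM of 7.28, 3.78 and 12.0 in AD, with 3.37, 5.81 and 5.34 in PH and 1.34, 3.20 and 1.42 in LG replicates 1 to 3. AD and PH overlapped widely, and LG lay below both, by a narrow gap between LG replicate 2 and PH replicate 1. It rests on 256 reads for AD, 259 for PH and 107 for LG. AD averaged 7.68 ± 4.12 RPKM, PH 4.84 ± 1.30 and LG 1.99 ± 1.05 (SD, n = 3).

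For *Socs36E*, AD stood 1.48 above LG on the log2 scale (SE 0.41, 95% interval 0.52 to 2.43, limma adjusted p = 0.0187), PH 0.99 above LG (SE 0.32, adjusted p = 0.0438), and AD 0.48 above PH (95% interval -0.35 to 1.31, adjusted p = 0.286), none of them called. The last value depended on single samples, being 0.86 without AD replicate 2 (adjusted p = 0.0437) and 0.13 without AD replicate 3 (adjusted p = 0.758). AD against LG was called in 3 of 15 alternatives, among them AD replicate 2 left out (1.85, adjusted p = 0.00926). Without LG replicate 1 the differences from LG were 1.33 for AD (adjusted p = 0.0527) and 0.85 for PH (adjusted p = 0.114). *Socs36E* and *Stat92E* thus had different profiles: PH, which had the lowest *Stat92E*, had more *Socs36E* RNA than LG in every sample, although that difference was not called.

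*Ptp61F* (FBgn0267487, 3L:1342493-1475257, minus strand) varied little within groups. Its RPKM was 18.9, 16.2 and 18.2 in AD, with 11.6, 12.8 and 11.7 in PH and 9.72, 10.01 and 9.61 in LG replicates 1 to 3. No pair of groups overlapped, in the order AD, PH, LG, although PH and LG were close. AD averaged 17.8 ± 1.43 RPKM, PH 12.0 ± 0.628 and LG 9.78 ± 0.203 (SD, n = 3), on 1010, 1148 and 1063 reads. AD was above LG by 0.80 on the log2 scale (SE 0.16, 95% interval 0.43 to 1.16, limma adjusted p = 0.00405), which passed the p-value threshold but not the 2-fold limit, and by 0.79 without LG replicate 1 (adjusted p = 0.012). The differences of AD from PH, 0.53 (adjusted p = 0.0116), and of PH from LG, 0.27 (adjusted p = 0.238), were not called, and the last was also 0.27 without LG replicate 1. The gene spans 132765 bp and holds several other genes in its introns, none of which shares an annotated exon with it, while a transposable element on the opposite strand, Rt1a, shares 158 bp of exon.

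Separation of the groups alone was common in these data. No overlap between the samples was seen for 5 of the 7 members tested between AD and PH (*dome*, *et*, *hop*, *Stat92E*, *Ptp61F*), 4 of 6 between AD and LG (*et*, *hop*, *Socs36E*, *Ptp61F*) and 5 of 6 between PH and LG (*dome*, *et*, *Stat92E*, *Socs36E*, *Ptp61F*). Among all genes tested, 65.4%, 58.3% and 47.7% were separated in these comparisons.

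The genes with the most similar profiles were sought over the 9 samples among 1938 genes with a mean of at least 10 RPKM and an SD of at least 0.5 on the log2 scale. All of them share these samples, and r was taken over all samples without removing the group means. Differences between the groups therefore enter each r in this paragraph, and r does not show that genes vary together within a group. The genes named are also the highest of the 1938, so that their r is a description and not a test. For *Stat92E* they were *CG32521* (Pearson r = 0.983), *CG10737* (0.982) and *fend* (0.98). *CG32521*, for instance, averaged 13.1 ± 0.961 RPKM for AD, 5.10 ± 0.916 for PH and 13.6 ± 1.11 for LG (SD, n = 3). For *dome* they were the corepressor gene *gro* (0.958) and the chromatin genes *dom* (0.949) and *E(Pc)* (0.947). *dom*, a different gene from *dome*, averaged 24.1 ± 2.59 RPKM for AD, 6.82 ± 2.05 for PH and 27.8 ± 1.75 for LG. For *Socs36E* the likeness was lower, with *CG32579* (0.925), *CG33494* (0.912) and *drongo* (0.888). The r of the members with each other ran from 0.852 for *dome* with *Stat92E* to -0.699 for *et* with *Socs36E* among the pairs that include either receptor gene. Among the pairs without a receptor gene, *hop* had -0.847 with *Ptp61F* and -0.822 with *Socs36E*. *Socs36E* with *Ptp61F* had 0.822, and the pairs with *Stat92E* lay between -0.189 and 0.134.

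Of 15 further regulators of the pathway, 14 were found and tested. In AD against PH, 4 were called higher and 2 lower, in AD against LG 1 higher and 2 lower, and in PH against LG 1 higher and 3 lower, beside the shares of all genes given above (23% higher and 13.9% lower, 20% and 10.4%, 7.63% and 6.57%). The repressor gene *ken*, whose product competes with Stat92E for some of its binding sites, had 20.8, 20.3 and 16.8 RPKM in AD, with 3.95, 2.13 and 4.15 in PH and 6.61, 5.48 and 7.36 in LG. It was higher in AD than in PH by 2.23 (limma adjusted p = 6.09e-05) and than in LG by 1.44 (adjusted p = 0.000507) on the log2 scale. *Socs16D*, a further gene of the SOCS family, had 16, 13.5 and 18.2 RPKM in AD, with 1.80, 2.93 and 1.43 in PH and 7.04, 8.21 and 7.94 in LG. Its 3 groups did not overlap, and PH was lower than AD (log2 difference of AD against PH 2.49, adjusted p = 3.52e-05) and than LG (-1.54, adjusted p = 0.0028), the second a call that was lost in 4 of 16 alternatives.

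*E(bx)*, which encodes the large subunit of the nucleosome remodeling factor NURF that acts with Ken at STAT targets, was lowest in PH, at 13.4 ± 1.32 RPKM against 32.1 ± 0.423 in AD and 41.4 ± 6.26 in LG (SD, n = 3), and was called in both comparisons with PH. *apt*, a transcription factor gene known as a feedback brake on STAT in ovarian border cells, followed the same order, with 0.675 ± 0.535 RPKM in PH, 6.71 ± 3.33 in AD and 11.8 ± 3.88 in LG, and was also called in both. *Stat92E*, *E(bx)*, *apt* and *Socs16D* thus had their lowest level in PH, with PH called lower than AD and than LG for each. *smt3*, which encodes SUMO, a modifier of Stat92E among many other proteins, was lower in AD than in PH by -1.56 (adjusted p = 1.71e-05) and than in LG by -1.75 (adjusted p = 4.2e-05), and *lwr*, which encodes its conjugating enzyme, was lower in AD than in LG by -1.44 (adjusted p = 0.0002) but was not called against PH (-0.96). The endosomal sorting genes, which act on receptor traffic, had their highest means in PH, where *Hrs* was called against AD (-1.15 for AD against PH, adjusted p = 0.00108) and *Stam* against LG (1.24 for PH against LG, adjusted p = 0.00121).

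Genes known as targets of the pathway in some tissue did not move as 1 group. Of 11 named, all were found, and 7, 9 and 6 of them passed the filter for AD against PH, AD against LG and PH against LG. In AD against PH, 3 were called higher and 2 lower, in AD against LG 3 higher and 2 lower, and in PH against LG 1 higher and 2 lower. Over all genes tested, 23% and 13.9% were called higher and lower in AD against PH, 20% and 10.4% in AD against LG, and 7.63% and 6.57% in PH against LG. The 3 higher in AD were in both comparisons the Turandot genes *TotA*, *TotC* and *TotM*, which encode stress peptides secreted by the fat body. *TotC* and *TotM* passed the filter only through the AD samples in which they were high, so that being tested depended on the values compared. With no filter both were still called higher in AD (limma adjusted p = 0.000108 and 0.000116 against PH, 0.000257 and 0.000274 against LG). With any AD sample left out under the main filter they were not tested, and 1 gene, *TotA*, was called higher in either comparison. Of the 2 called lower in AD against LG, *chinmo* likewise passed the filter only through the LG samples.

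*TotA* had 507, 80.6 and 159 RPKM in AD, with 5.16, 13.2 and 13.5 in PH and 3.47, 4.56 and 4.40 in LG. *TotC* had 358, 64.3 and 94.7 RPKM and *TotM* 135, 30.6 and 49.3 RPKM in AD replicates 1 to 3, and neither had a read in a larval sample. Against the RPKM of 3 reads in a larval library, the AD mean of *TotC* was at least 117-fold higher than PH and at least 92.2-fold higher than LG, and that of *TotM* at least 50.7-fold and 39.9-fold higher. AD replicate 1 was the highest in each of the 3 genes, and without it the bounds fell to 54.1-fold and 42.5-fold for *TotC* and to 28.3-fold and 22.3-fold for *TotM*. The 4 adult fat body markers, at 7505 RPKM or more in every AD sample, also separated AD from the larval groups, and their part in the Turandot values was not tested.

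The thioester protein gene *Tep1* ran the other way, with 22.8, 27.5 and 28.4 RPKM in AD, with 70.6, 82.1 and 86.1 in PH and 290, 348 and 309 in LG. It was lower in AD than in PH by -1.57 (limma adjusted p = 2.02e-05), in AD than in LG by -3.54 (adjusted p = 3e-06) and in PH than in LG by -1.97 (adjusted p = 0.000133) on the log2 scale. *chinmo*, a STAT target in the testis and the eye, stood at 34.8, 17.1 and 33.4 RPKM in LG, at 0.972 to 1.57 in PH and at 0.236 to 0.393 in AD, and was called in both comparisons with LG. For AD against LG it passed the filter only through the LG samples in which it was high. Being tested there thus depended on the values compared, and with any LG sample left out the gene was not tested in that comparison. With no filter it was still called lower in AD than in LG (-4.415, limma adjusted p = 0.000134). *et*, *Tep1* and *chinmo* thus had their highest level in LG, where *Socs36E* had its lowest.

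*vir-1*, a gene induced by virus infection, was highest in PH, at 81.1, 129 and 206 RPKM, and was called higher in PH than in LG (3.03, adjusted p = 0.00553), although this call was lost in 6 of 16 alternatives. *wdp*, which encodes a leucine-rich repeat protein, was higher in PH than in AD (log2 difference of AD against PH -1.77, adjusted p = 0.000238). *zfh1*, a transcription factor gene that is a STAT target in the testis, had 59.0 to 137 RPKM over all samples and was not called. *TotB* and *Diedel* had at most 1.26 RPKM in any sample, and *Listericin* was above 3 RPKM in LG replicate 1 alone, at 12.3. Without LG replicate 1, every call on a regulator or target against LG was made again in the same direction, except *chinmo* for AD against LG, which then no longer passed the filter, and *wdp* was added as higher in PH (1.75, adjusted p = 0.00147).

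**Figure D4:**
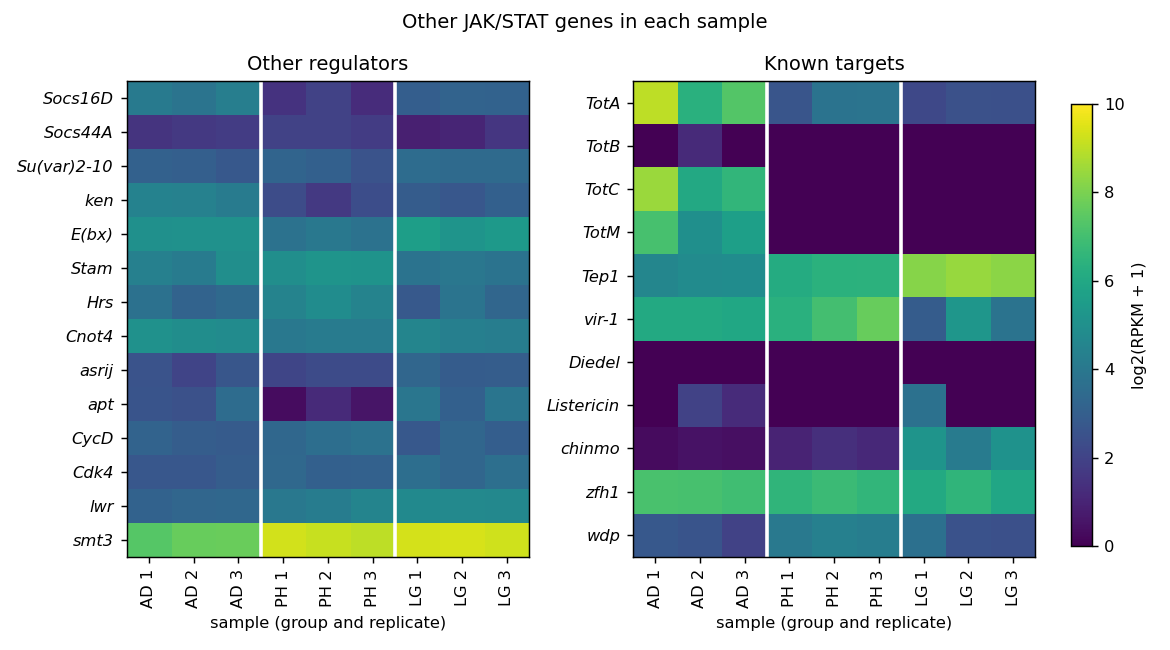
Level of the other regulators (left) and known targets (right) of the JAK/STAT pathway in each sample, as log2(RPKM + 1) by color, with white lines between AD, PH and LG. *ken* and *Socs16D* are highest in the 3 AD samples, *TotC* and *TotM* have no read outside AD, and *Tep1* and *chinmo* are highest in the 3 LG samples.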

How the data were processed

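The deposited values are RPKM per gene, which the authors made from reads trimmed with Trimmomatic 0.32, aligned with HISAT2 2.1.0 to dm6 and counted with HTSeq 0.5.4p5, calculating RPKM with Cufflinks 2.2.1, per the paper's methods and the submitters' processing notes. All 9 sample columns, written with decimal commas, were used. Each RPKM times the exon length of Ensembl BDGP6.54 gave whole reads within 0.02 for 97.8 to 97.9% of values. Genes were matched by identifier (17216) or symbol (85), and 189 were not matched. RPKM are not counts, so pairs of groups were tested in R 4.3.3 with limma 3.58.1 (two-sided, lmFit and trended eBayes) on the log2(RPKM + 1) values of the 6 samples of a pair. The pseudocount was 1. The test was also run on simulated data in which every gene had the same added noise. The real genes differ in their spread, so that run cannot speak for calls near the thresholds. Python 3.11.15, pandas 2.3.3, numpy 2.4.6, scipy 1.17.1 and matplotlib 3.10.9 were also used.

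The members and gene lists were chosen with earlier results of these data known. All members are named, with genes of 2 lists written from general knowledge (regulators and targets) and the 3 genes most similar in profile to each of *Stat92E*, *dome* and *Socs36E*. Alternatives covered the pseudocount, the filter, the scaling, all 9 samples in a single fit, the replicate number as a block, limma-voom on recovered reads, and each sample left out.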

Additional observations from a re-analysis of the deposited data

How the results depend on the processing

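The number of members called moved by single genes near the thresholds. For AD against PH it was 1 instead of 2, *dome* being lost, with pseudocounts of 0.1 and 5, no filter, quantile normalization, and scaling to reads outside rRNA, and 1 to 2 with a sample left out. For AD against LG it was 2 instead of 1 with quantile normalization, scaling to total reads or to reads outside rRNA (*hop* added), and with all 9 samples in a single fit (*Socs36E* added), 3 with limma-voom on recovered reads (both added), and 1 to 2 with a sample left out. For PH against LG it was 3 instead of 2 (*dome* added) with a filter at RPKM 5, scaling to total reads or to reads outside rRNA, and all 9 samples in a single fit, 4 with limma-voom (*dome* and *Socs36E* added) and 2 with any sample left out. A pseudocount of 5 lowered the calls over all genes to 1711, 1483 and 615 from 2844, 2358 and 1007 for AD against PH, AD against LG and PH against LG. With a sample left out they were 2002 to 2521, 1274 to 2261 and 431 to 1172. Scaling moved the split of these calls: with quantile normalization it was 1425 higher and 1450 lower for AD against PH, from 1773 and 1071, and 1218 and 1207 for AD against LG, from 1553 and 805, and with scaling to total reads it was 320 and 732 for PH against LG, from 541 and 466. The median difference of all genes shifted by up to -0.33 on the log2 scale.

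The difference of *dome* between AD and LG changed sign to 0.00801 without AD replicate 1 and to 0.0378 without LG replicate 1 (from -0.298 to 0.0378 with any sample left out), and that of *Ptp61F* between PH and LG to -0.0772 when scaled to total reads, none of them called. The causes were not tested. Of 298 values of single members under the alternatives, 271 kept their direction and their side of the threshold, as did 388 of 400 values for the 26 calls on regulators and targets, not counting settings in which a gene was no longer tested. With the replicate number as a block, 2, 1 and 2 members were called, as without it, and 2833, 2031 and 802 of all genes, so that the block changed no member's call. Same-numbered samples did not deviate together (correlations -0.11 to 0.05 over 9 pairs of samples). Pairs with different numbers ran from -0.13 to 0.11. With 3 samples in each group, this cannot tell whether a number stands for a shared day or batch, and the labels give the number alone. Depth limits the ligand genes above all: *upd1* and *upd2* had at most 6 reads in a sample.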
